A study of Mus musculus with 6 samples.

Results

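The genes described here encode 10 subunits of protein phosphatase 2A (PP2A): the catalytic subunits Ppp2ca and Ppp2cb, the scaffold subunits Ppp2r1a and Ppp2r1b, the B55 regulatory subunits Ppp2r2a, Ppp2r2b, Ppp2r2c and Ppp2r2d, and the B56 regulatory subunits Ppp2r5a and Ppp2r5c. They were found by symbol in the array's probe annotation, where each of the 10 had 1 probe, and they are 10 of 17390 genes tested. The members were chosen by a rule that had in view the normalized intensity differences between Chd7 KD and Control on these same arrays, so the members' differences are given below as descriptions, without a test of their own.

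PP2A is one of the main serine/threonine phosphatases of animal cells. A catalytic subunit binds a scaffold subunit, and this core takes up 1 regulatory subunit of several families, which decides where the enzyme goes and which proteins it dephosphorylates. Through these different complexes PP2A acts on mitotic exit, growth factor signalling and the cytoskeleton. Some regulatory subunits are found in nearly all tissues, while B55 beta (Ppp2r2b) and B55 gamma (Ppp2r2c) are known mainly from brain.

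The cells were oligodendrocyte precursors, the progenitors of the myelinating glia, taken from forebrains of E15.5 embryos of the Jcl:ICR mouse stock. Cells kept with the mitogens FGF2 and PDGF-AA received a retrovirus that knocks down Chd7, an ATP-dependent chromatin remodeller (Chd7 KD, 3 samples), or a control retrovirus (Control, 3 samples), and were collected 3 days later. Each sample was read on its own one-colour array. The knockdown sequence, the promoter that drives it and whether replicates were separate cultures are not given in the sources used here, so the spread between samples may be technical.

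The median raw signal of the probes was 83.4 to 89.4 per array, with blank spots averaging 58.9 to 61.9, and the number of arrays limits the precision. Chd7 itself read 8.54, 8.44 and 8.48 on the Chd7 KD arrays and 9.44, 9.20 and 9.47 on the Control arrays (normalized log2 intensity), a log2 difference of -0.88 (SE 0.0855, adjusted p = 0.00112 in limma). A dimmer Chd7 probe had a log2 difference of -0.48, which left 71.5% of the Control signal, against 54.3% on the first. Of the precursor markers Pdgfra, Cspg4, Sox10, Olig1, Olig2, Lhfpl3, Cacng4, Gpr17 and Nkx2-2, all 9 were above the detection limit. At an adjusted p below 0.05 in limma 6 of the 9 fell, where 5.15% of all genes tested fell. With the replicate number as a block 8 did, Olig1 and Nkx2-2 added. The log2 differences of the 9 ran from -1.36 for Pdgfra to 0.01 for Gpr17. All values below are log2 intensities after normexp correction with an offset of 50, which puts the bottom of the scale at 5.64 and shrinks the differences of dim genes. Levels are compared within a probe only, since the brightness of different probes is not comparable.

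Among the 10 subunits, Ppp2r2b was lower and Ppp2ca higher on each of the 3 Chd7 KD arrays, and the other differences were small. At an adjusted p below 0.05 over all genes, 2 of the 10 passed, 1 higher and 1 lower. Over all genes tested 9.64% passed, 4.49% higher and 5.15% lower, and nothing is read from the members' count because the same contrast guided their choice. These were 1677 genes, and 2577 with the replicate number as a block. The groups did not overlap for 5 of the 10 members, 2 higher (Ppp2ca, Ppp2r5c) and 3 lower (Ppp2r2b, Ppp2r2c, Ppp2r2d), where 29.9% of all genes tested did not overlap. The members' median log2 difference was 0.028, against 0.00077 for all genes tested.

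**Figure D1:**
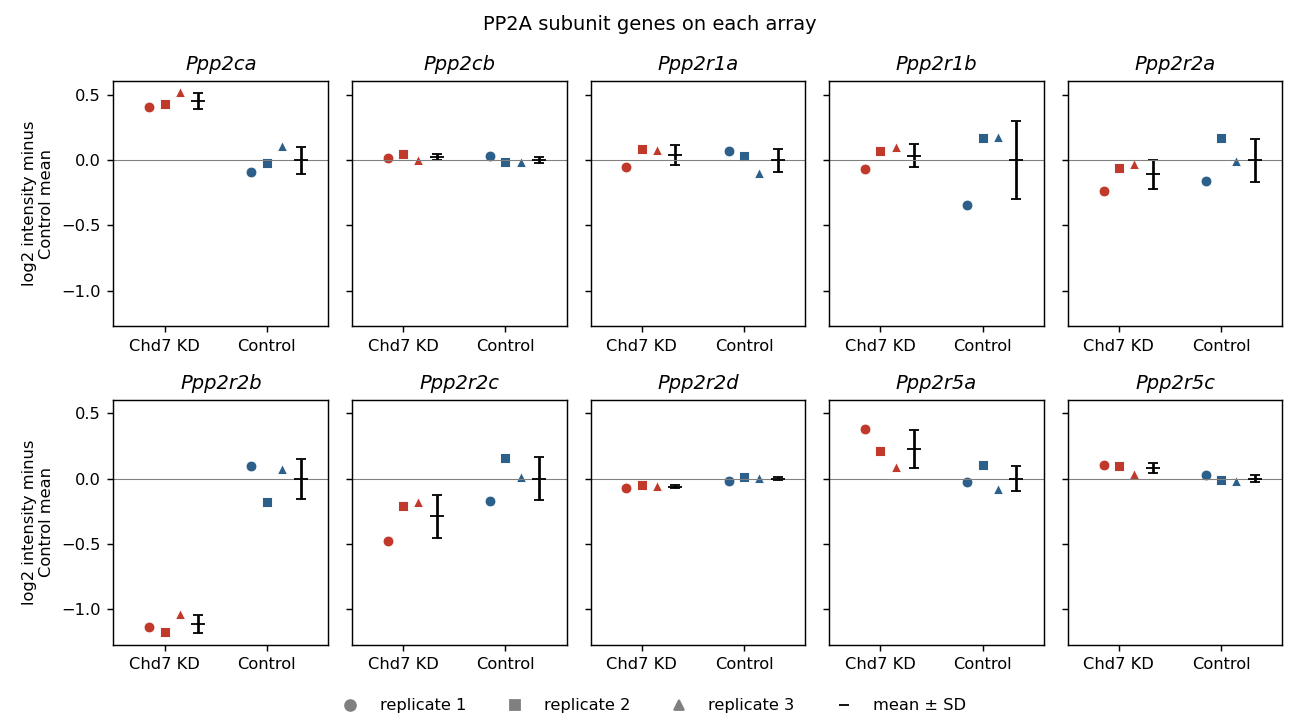
Normalized log2 intensity of each PP2A subunit gene minus that gene's Control mean, for the 3 Chd7 KD arrays and the 3 Control arrays (symbols mark the replicate number; black bars give mean ± SD, n = 3). Between arrays of equal number, Ppp2r2b differs by -1.24 to -0.99 and Ppp2ca by 0.41 to 0.50.

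Ppp2ca encodes the alpha catalytic subunit, the form that supplies most of the phosphatase activity in many cells. It read 11.19, 11.22 and 11.31 on the Chd7 KD arrays, against 10.69, 10.77 and 10.90 on the Control arrays. All 3 knockdown values lay above all 3 control values. The means were 11.24 ± 0.0597 in Chd7 KD and 10.79 ± 0.104 in Control (SD, n = 3 each), a log2 difference of 0.45 (SE 0.0783), and 198 of the 17390 genes had a larger positive difference. The raw spot medians behind these values were 2613, 2168 and 2686 in Chd7 KD and 1542, 1812 and 1992 in Control.

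Ppp2cb encodes the beta catalytic subunit, a separate gene whose protein is nearly the same as that of Ppp2ca. It read 10.53, 10.56 and 10.52 in Chd7 KD and 10.55, 10.50 and 10.50 in Control, so that the groups overlapped. Its log2 difference was 0.022 (SE 0.065). The pair of catalytic genes therefore had unequal differences on these arrays, although the difference between them was not tested, and how far each probe also binds the other gene's RNA was not tested.

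The scaffold genes, whose proteins hold the catalytic and regulatory subunits together, overlapped between the groups. Ppp2r1a, the alpha scaffold, read 10.48, 10.62 and 10.62 in Chd7 KD and 10.61, 10.57 and 10.44 in Control, with a log2 difference of 0.037 (SE 0.0783). Ppp2r1b, the beta scaffold, read 7.02, 7.16 and 7.19 in Chd7 KD and 6.74, 7.26 and 7.26 in Control, with a log2 difference of 0.035 (SE 0.129). Its Control SD of 0.30 was the widest spread of any member in either group and came from Control replicate 1. Without that array the Ppp2r1b difference was -0.14.

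Among the regulatory subunits, the B55 gene Ppp2r2b stood at the low end of all genes tested. Its protein, B55 beta, has splice forms that differ at the N-terminus, and in humans a repeat expansion in the gene causes spinocerebellar ataxia type 12. The gene read 8.94, 8.90 and 9.04 on the Chd7 KD arrays, against 10.17, 9.90 and 10.15 on the Control arrays. The highest knockdown value lay below the lowest control value by more than the spread within either group. The means were 8.96 ± 0.0692 in Chd7 KD and 10.07 ± 0.153 in Control (SD, n = 3 each).

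The log2 difference of Ppp2r2b was -1.11 (SE 0.0895), which left 46.2% of the Control signal, and only 5 of the 17390 genes had a larger negative difference. The raw spot medians were 536, 439.6 and 558 in Chd7 KD and 1079, 980.5 and 1196 in Control. In the authors' processed values the gene stood at 348, 318 and 346 in Chd7 KD and at 827, 690 and 877 in Control, a log2 difference of -1.23. By replicate number the differences were -1.24, -0.99 and -1.11.

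The Ppp2r2b probe is annotated to NR_073583.1, a RefSeq accession of the non-coding RNA class. It was the 1 member whose annotated accession was not among the transcripts that the RefSeq table (GRCm38.p6) lists for its gene, while for the other 9 it was. No source used here says which Ppp2r2b transcripts the probe detects, and the values cannot be split by splice form.

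Its closest relatives in the B55 family differed less. Ppp2r2c, B55 gamma, was dim and read 6.64, 6.91 and 6.94 in Chd7 KD and 6.95, 7.28 and 7.13 in Control. The groups were separated only narrowly, with a log2 difference of -0.29 (SE 0.0994) that was -0.52 in the authors' values, where the dim end is not compressed. In each group replicate 1 was the lowest array. With the replicate number as a block Ppp2r2c passed as well, so that 3 of the 10 members did. It also passed when Control replicate 1 was left out. Nothing is read from these passes, because the same contrast guided the members' choice.

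Ppp2r2a, B55 alpha, a broadly expressed form that acts in mitotic exit, read 7.12, 7.29 and 7.32 in Chd7 KD and 7.19, 7.52 and 7.34 in Control. These values overlapped (log2 difference -0.11, SE 0.0894). Ppp2r2d, B55 delta, read 8.54, 8.56 and 8.55 in Chd7 KD and 8.60, 8.62 and 8.62 in Control. The groups did not overlap only because both were tight (SD 0.0105 in Chd7 KD and 0.013 in Control), and the difference was small at -0.06 (SE 0.0582). All 4 B55 genes thus had negative differences, from -1.11 to -0.06. Those of Ppp2r2a and Ppp2r2d were little larger than their SE, and the same contrast guided the members' choice. The shared sign is therefore not read as a trait of the family.

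The values of both B56 members were higher on average in Chd7 KD, and neither passed. Ppp2r5a, B56 alpha, read 8.85, 8.68 and 8.56 in Chd7 KD and 8.44, 8.57 and 8.39 in Control. The lowest knockdown array and the highest control array overlapped (log2 difference 0.23, SE 0.0884). Ppp2r5c, B56 gamma, lay near the bottom of the scale at 6.28, 6.28 and 6.21 in Chd7 KD and 6.21, 6.17 and 6.16 in Control, with groups that just missed overlapping and a log2 difference of 0.08 (SE 0.0313) here and 0.27 in the authors' values.

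All 10 member probes were above the detection limit on all 6 arrays, and no member had only a bound. In 7 of the 10 members the 3 differences between arrays of equal number had 1 sign. In 5 of the 10 members, Ppp2ca, Ppp2r1b, Ppp2r2a, Ppp2r2c and Ppp2r2d, replicate 1 was the lowest array in both groups. The share over all genes was not counted for either pattern, so neither is read as a trait of the members. The arrays fell into 2 sets by the slope between scanner gains in the file headers, Chd7 KD replicate 2 with Control replicates 1 and 2 (slopes 0.464 to 0.467), and Chd7 KD replicates 1 and 3 with Control replicate 3 (0.478 to 0.479). Within these sets Ppp2r2b differed by -1.13 and -1.16, and Ppp2ca by 0.49 and 0.35.

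Windows of 300 bases, 250 before and 50 after the gene's start, were taken from the RefSeq promoter table for 7 of the 10 members. Ppp2cb and Ppp2r2a had no window there. Ppp2r2b was not looked up, because members' windows on its chromosome, 18, were left out. A full cyclic AMP response element (TGACGTCA, a palindrome and so the same on both strands, chosen after the sequences were read) was present in the windows of Ppp2ca and Ppp2r2d and in none of the other 5 members' windows. Among all windows of the promoter set, 1.79% of 32851 held it. The windows are shown because both hold this motif, in a gene that was higher in Chd7 KD and in one that differed by only -0.06. The match is a description of letters and says nothing about binding. The capitals mark the motif, and the sequences are from RefSeq, GRCm38.p6, plus strand, at chr11:52098574-52098873 for Ppp2ca and chr7:138846109-138846408 for Ppp2r2d.
Ppp2ca: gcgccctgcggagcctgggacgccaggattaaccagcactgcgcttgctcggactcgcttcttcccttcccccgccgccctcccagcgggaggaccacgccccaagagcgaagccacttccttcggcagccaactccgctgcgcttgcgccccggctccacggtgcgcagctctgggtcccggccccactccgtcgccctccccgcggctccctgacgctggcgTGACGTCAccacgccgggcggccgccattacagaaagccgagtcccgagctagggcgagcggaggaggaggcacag
Ppp2r2d: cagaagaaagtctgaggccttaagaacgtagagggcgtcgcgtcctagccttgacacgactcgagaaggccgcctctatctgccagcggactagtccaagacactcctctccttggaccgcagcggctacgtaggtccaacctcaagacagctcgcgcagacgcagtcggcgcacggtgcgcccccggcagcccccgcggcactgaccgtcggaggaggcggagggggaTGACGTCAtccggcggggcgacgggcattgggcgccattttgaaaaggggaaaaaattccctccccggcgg

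The motif began 26 bases before the start of Ppp2ca in the promoter table. For Ppp2r2d that table has 2 starts, and the motif began 21 bases before the start of the window printed and 48 bases before the other. The Ppp2ca window was 71.7% G or C with 34 CpG dinucleotides, and the printed one of Ppp2r2d 64.3% with 32. Neither held TATAAA on either strand, which 13.6% of all windows did.

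Genes whose pattern over the 6 arrays was most like that of Ppp2r2b were ranked by the root mean square difference of their log2 values after subtracting each gene's mean. The 5 nearest were Lnx1 (0.0848), a ubiquitin ligase gene, Sh3gl3 (0.0893), which encodes an endophilin, Ugdh (0.0897), which makes UDP-glucuronate, Rlbp1 (0.0985), a retinaldehyde-binding protein gene, and Lims2 (0.118), an adaptor of integrin adhesions. Their log2 differences were -1.02, -1.22, -1.04, -1.11 and -0.95, and likeness here is mostly a difference of similar size.

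Of the 8 genes next to Ppp2r2b in the RefSeq gene order, 4 on each side, 1 was tested: Gpr151, an orphan receptor gene, read 5.98, 6.02 and 5.97 in Chd7 KD and 5.93, 5.92 and 5.97 in Control, near the bottom of the scale. Going along coding genes only, which was done after values were seen, reached Pou4f3 and Rbm27 on the same side as Gpr151 and Stk32a and then Dpysl3 on the other. Dpysl3, a growth cone gene of the collapsin response mediator family, read 8.79, 9.07 and 9.43 in Chd7 KD and 10.67, 10.28 and 10.75 in Control, a log2 difference of -1.47 (SE 0.169). Stk32a, a kinase gene that lies between Ppp2r2b and Dpysl3 in that order, read 7.12, 7.06 and 7.20 in Chd7 KD and 7.31, 7.32 and 7.37 in Control. Its difference was -0.21 on this probe (adjusted p = 0.0493 in limma) and -0.10 on a dimmer one, and the groups overlapped on neither. Pou4f3 and Rbm27 differed by 0.025 and -0.04 with overlapping groups. Both also lay near the bottom of the scale, at 5.93 to 6.05 and 5.99 to 6.13 over the 6 arrays, where differences are shrunk.

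**Figure D2:**
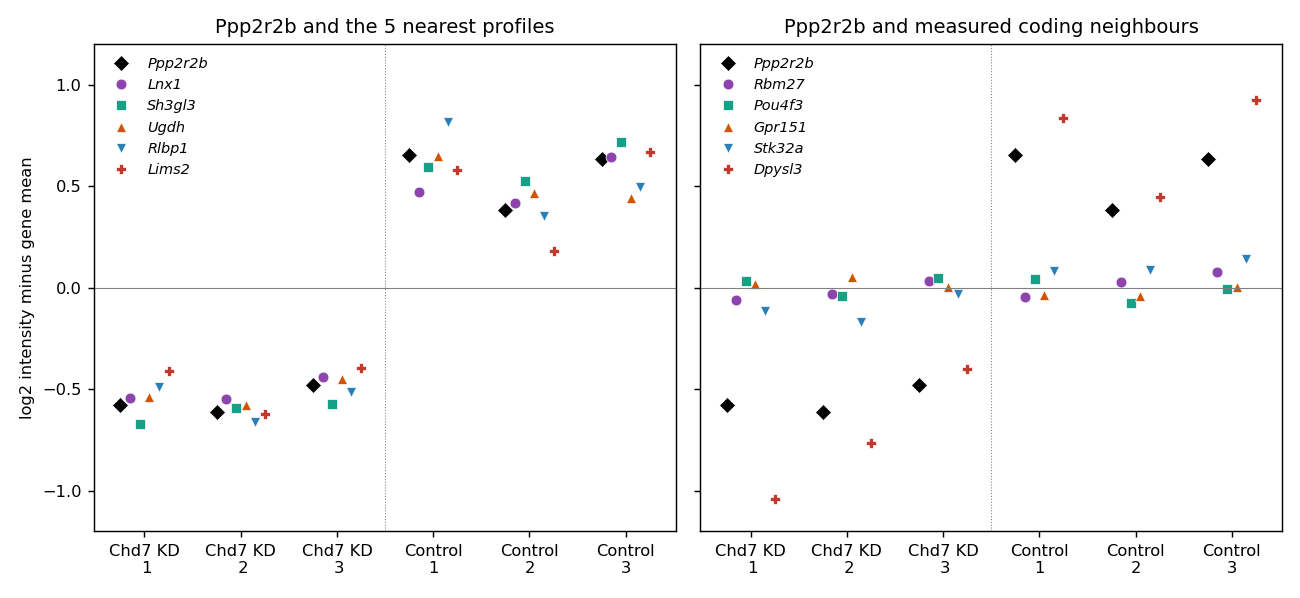
Log2 intensity minus each gene's mean over the 6 arrays, by array, for Ppp2r2b with the 5 genes of most similar pattern (left) and with the measured coding genes around it (right). On the right, Dpysl3, Ppp2r2b and, by less, Stk32a are low on all 3 Chd7 KD arrays. Rbm27, Pou4f3 and Gpr151 stay within 0.1 of their means but lie near the bottom of the scale, where differences are shrunk.

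Outside the 10 members, 37 other genes of the PP2A system were tested, of which 1 rose and 5 fell at an adjusted p below 0.05 over all genes. That is 16.2% of them, against 9.64% of all genes tested. Their median log2 difference was -0.08. In the further regulatory subunits 2 of 5 fell and none rose. Ppp2r5e, B56 epsilon, read 9.67, 9.63 and 9.61 in Chd7 KD and 10.11, 9.93 and 10.11 in Control (log2 difference -0.41, SE 0.0754, adjusted p = 0.0112 in limma). A dimmer Ppp2r5e probe had a log2 difference of 0.06 (SE 0.067) and overlapping groups, so the fall was seen on 1 of 2 probes. Ppp2r3d, a B'' subunit gene, fell by 0.23 (SE 0.0463, adjusted p = 0.0162). That call was lost without Chd7 KD replicate 2 (adjusted p = 0.075) or Control replicate 2 (0.0596).

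The remaining regulatory genes did not pass. Ppp2r3c read 8.20, 9.13 and 9.23 in Chd7 KD and 9.52, 9.33 and 8.89 in Control. Chd7 KD replicate 1 was the lowest array of this spread (log2 difference -0.40, SE 0.258). A dimmer Ppp2r3c probe was tighter and differed by -0.20 (SE 0.0599), with groups that did not overlap (adjusted p = 0.0705 in limma over all probes). Ppp2r3a differed by -0.08 and Ppp2r5b by -0.02.

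Of 13 genes of the striatin complexes, which use striatins as B''' regulatory subunits and join PP2A to kinases, 1 fell and none rose. Strn3, a striatin, read 8.25, 8.23 and 8.18 in Chd7 KD and 8.83, 8.67 and 8.66 in Control. The groups did not overlap, and the log2 difference was -0.50 (SE 0.069, adjusted p = 0.0038 in limma). Leaving out any 1 of the 6 arrays kept the call. The other striatin genes differed by 0.08 for Strn (SE 0.025) and -0.12 for Strn4 (SE 0.0902), and the adaptor gene Fgfr1op2 by -0.19 (SE 0.06, adjusted p = 0.0772).

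None of the 5 genes that assemble or methylate the core passed in limma, and 1 of the 5 had an unadjusted p below 0.05. That was Ppme1, the methylesterase that takes the methyl group off the catalytic tail, with a log2 difference of 0.19 (SE 0.0698, adjusted p = 0.125). Its counterpart Lcmt1, the methyltransferase, differed by 0.05, the activator Ptpa by -0.02, Igbp1, which binds free catalytic subunit, by 0.16, and Tiprl by 0.07.

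Of 9 genes for PP2A inhibitors and the Greatwall arm, 1 rose and 2 fell. Greatwall kinase (Mastl) phosphorylates Arpp19 and Ensa, a pair of related small proteins that then inhibit PP2A with B55. Arpp19 read 8.75, 8.75 and 8.81 in Chd7 KD and 8.35, 8.54 and 8.45 in Control (log2 difference 0.32, SE 0.0698, adjusted p = 0.0223 in limma). Ensa read 9.20, 9.04 and 9.08 in Chd7 KD and 9.45, 9.38 and 9.45 in Control (-0.32, SE 0.0715, adjusted p = 0.0259). The pair had opposite signs, each without overlap between groups, and Mastl differed by 0.026 (SE 0.0592).

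These calls rested on few arrays. Arpp19 did not pass without any 1 of the 3 Chd7 KD arrays or Control replicate 3 (adjusted p up to 0.0769), with median scaling (0.0986), with the scanner gain set as a block (0.0516) or in the authors' values (0.0665). Ensa passed in 1 of the 6 fits that left out an array (the others gave adjusted p from 0.0511 to 0.102), and missed the threshold after median scaling (0.0989) and in the authors' own values (0.0554). Bod1l, a relative of the PP2A-B56 inhibitor gene Bod1, fell by 0.13 near the bottom of the scale (adjusted p = 0.025). That call was lost without any 1 of the 3 Chd7 KD arrays or Control replicate 3 (adjusted p up to 0.0928), and its other probe read -0.04. Anp32a, an inhibitor of PP2A, had a log2 difference of -0.41 (SE 0.126, adjusted p = 0.0761) and passed with the replicate number as a block (adjusted p = 0.0144), with the gain set as a block (0.0468) and without Chd7 KD replicate 3 (0.0367). The inhibitor gene Set differed by -0.13 and Cip2a by -0.08.

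None of the 5 genes whose proteins bring PP2A-B56 to the kinetochore, centromere or spindle passed in limma, and 3 had an unadjusted p below 0.05. All 5 values were negative: Kif4 at -0.20 (adjusted p = 0.149), Sgo1 at -0.20 (adjusted p = 0.0822), Bub1b at -0.19 (adjusted p = 0.0999), Racgap1 at -0.10 and Sgo2a at -0.07.

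**Figure D3:**
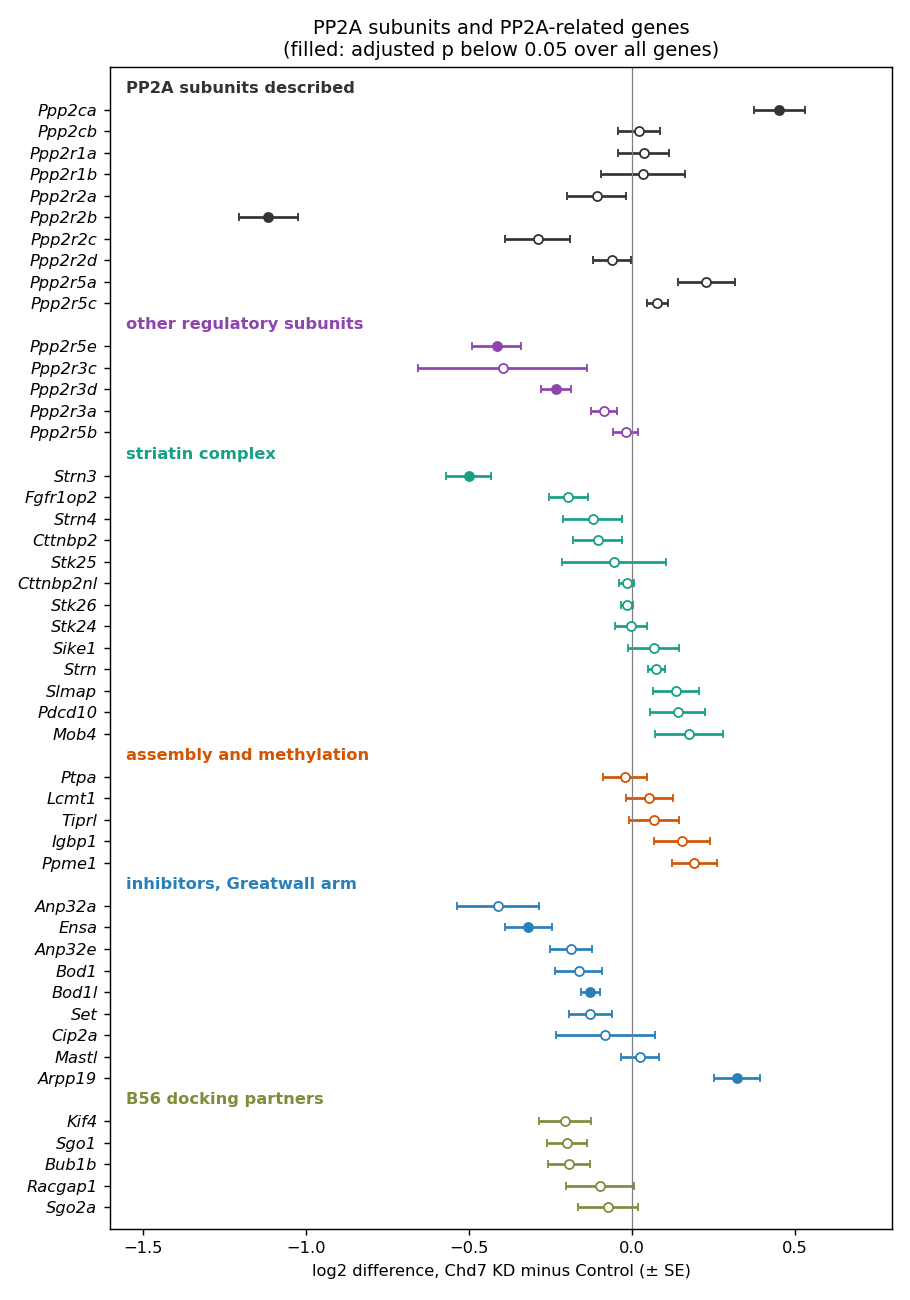
Log2 difference between Chd7 KD and Control (points, ± SE) for the 10 PP2A subunits and the 37 other PP2A-related genes tested, by group, with filled points at an adjusted p below 0.05 over all genes. Ppp2r2b at -1.11 and Ppp2ca at 0.45 mark the ends of the scale, and Strn3, Ppp2r5e, Ensa, Ppp2r3d and Bod1l fell while Arpp19 rose.

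Among the nearest relatives of PP2A, the phosphatases PP4 and PP6 with their regulators, 1 of 13 genes rose and 1 fell. Ppp6c, the PP6 catalytic subunit, rose by 0.29 (SE 0.0684, adjusted p = 0.0301 in limma), a call lost in 5 of the 6 fits without 1 array (adjusted p up to 0.0957), with median scaling (0.0815) and in the authors' values (0.0575). Ankrd28, a regulatory subunit of PP6, fell by 0.27 (SE 0.0548, adjusted p = 0.0169) and did not pass without Chd7 KD replicates 1 or 3 or Control replicate 3 (adjusted p up to 0.0734). Ppp4c, the PP4 catalytic subunit, differed by -0.08. Of 8 catalytic genes of PP1, calcineurin and PP5 and related phosphatases none passed in limma and 1 had an unadjusted p below 0.05. This was Ppp3cc, with a log2 difference of -0.15 (adjusted p = 0.0632).

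**Figure D4:**
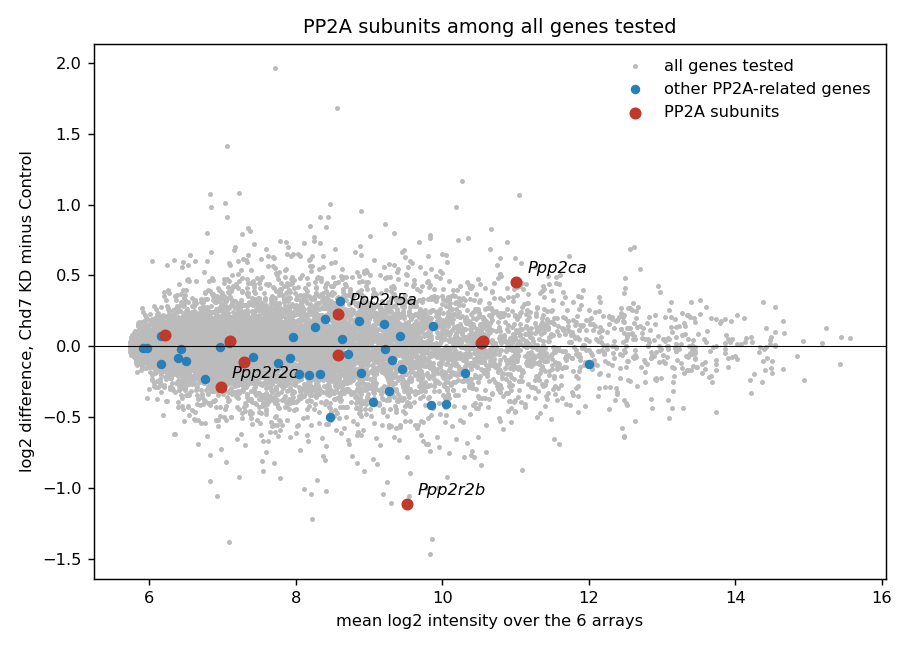
Log2 difference between Chd7 KD and Control against mean log2 intensity over the 6 arrays for 17390 genes (grey), with the 37 other PP2A-related genes (blue) and the 10 PP2A subunits (red). Ppp2r2b lies at the lower edge of the cloud and Ppp2ca near the upper edge at its intensity.

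Markers of other cells were read beside these values, because Ppp2r2b and Ppp2r2c are known from neurons. Of 15 neuron markers tested 5 fell and none rose: Gap43 by 0.84, Dcx by 0.71, Elavl4 by 0.60, Elavl3 by 0.31 and Map2 by 0.12. The summed linear signal of the 15 was 2408 to 3129 on the Chd7 KD arrays and 3579 to 4450 on the Control arrays. Such a sum is weighted towards the brightest probe and does not stand for the whole set. Here that was Gap43, at 9.67, 10.33 and 10.33 in Chd7 KD and 10.66, 11.21 and 10.98 in Control. The other 10 neuron markers read 5.85 to 7.17 in Chd7 KD and 5.83 to 7.35 in Control. With the replicate number as a block 6 fell, Tubb3 added, and 1 rose, Syt1 with a log2 difference of 0.20. The 9 precursor markers summed to 9959 to 11253 in Chd7 KD and 12920 to 15217 in Control. The brightest of them was Olig1, with a log2 difference of -0.24 that did not pass in the main fit. The part of these neuron and precursor signals in the Ppp2r2b result was not tested. In bulk RNA fewer cells of a type and less RNA per cell cannot be told apart.

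No marker of the other cell types passed in limma: 0 of 8 for astrocytes, 0 of 7 for microglia, 0 of 3 for endothelium, 0 of 7 for fibroblasts and pericytes and 0 of 6 for mature oligodendrocytes. At an unadjusted p below 0.05 there were 3, 0, 0, 1 and 1 of them in the same order. With the replicate number as a block 4 passed, the astrocyte markers Gja1 (log2 difference 0.44) and Slc1a2 (-0.47) and the oligodendrocyte markers Mog (0.24) and Mobp (0.17). A dimmer Slc1a2 probe differed by 0.09, the opposite sign, and a dimmer Mog probe by 0.05, both with overlapping groups. The summed astrocyte signal, weighted towards its brightest probe, that of Aldoc (log2 difference -0.18), was 14566 to 15370 in Chd7 KD and 14835 to 15392 in Control. Itgam and Tmem119 of microglia and Pecam1, Cldn5 and Tek of endothelium did not reach the detection limit on 3 arrays.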

How the data were processed

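Per the labels' protocols, RNeasy-purified total RNA was turned into amino allyl aRNA and labelled with Cy5. Intensities are spot medians deposited by the authors. Per the file headers, scans at 3 gains were combined by a least-squares fit. A second set of deposited values is a linear function of these, rounded, with a median of 25 on each array. Some probes have no value there. The image software and array annotation build are not given in the sources used here.

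Spot signals, with no local background subtracted, went through normexp (offset 50) and were quantile normalized and averaged per probe in limma 3.58.1 (R 4.3.3). A probe was tested if on at least 3 arrays it was brighter than the blank-spot mean plus 2 SD. A further 1 probe, with a bad mark at all gains, was dropped. The brightest probe stood for a gene. Of 23473 probes, 20690 had 1 symbol, 2783 none and 0 several, and 20556 matched RefSeq (GRCm38.p6) by Entrez ID. Groups were compared with limma (lmFit, eBayes with trend, two-sided, Benjamini-Hochberg over 17390 genes).

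Deviations from group means correlated at 0.37, 0.39 and 0.22 between arrays of equal number and at -0.014 or below otherwise. Deviations cancel within a group, so the values for unequal numbers are not independent of those for equal ones. The main fit did not pair the arrays, and the replicate number was used as a block only in an alternative fit. The labels do not state a pairing. The members and lists were chosen with earlier results of these data known. Named were all members, Chd7, list genes that passed or had the smallest p, the 5 nearest profiles and the neighbours of Ppp2r2b. Others, Dpysl3, Stk32a, Pou4f3 and Rbm27 among them, were named after their values were seen. Ppp2r5d, Pabir1 and Pabir2 were not analysed here. The fit was tested on simulated normalized values of 17390 genes for Chd7 KD against Control. It recovered 79% of 100 genes changed 1.5-fold and 97% of 100 changed 2-fold, with 10 false calls. No other genes were changed, a smaller share than the 9.64% that passed in the data, so recovery there may differ. The changes were put only into genes with brighter Control means, and the noise was independent between arrays. Recovery of dim genes such as Ppp2r5c was not simulated. Figures used matplotlib 3.10.9.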

Additional observations from a re-analysis of the deposited data

How the results depend on the processing

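The alternatives changed the background step (none, or an offset of 16), the scaling (to the median, or by cyclic loess), the source (the authors' values, for probes measured on every array), the dim-probe filter (none, or all 6 arrays), the variance model (no trend, robust, or weighted arrays), the blocks (replicate number, or scanner gain set), the samples (1 gain set at a time, or 1 array fewer), the threshold (0.1) and the unit (each probe separately). Ppp2r2b and Ppp2ca kept their direction in all 22, with log2 differences of -1.23 to -1.03 and of 0.35 to 0.51. The dim-probe filters, the fits without trend or with robust variance, the replicate block, the threshold and the unit left both differences unchanged. Only the other alternatives could move them, and the looser threshold of 0.1 could not lose a call. All 22 refit the arrays that guided the members' choice, so passes of members among them are a description and no support. Ppp2r2b passed in 21 and Ppp2ca in 20. Of the 10 subunits 2 passed, and within the gain sets, each with 2 arrays against 1, 0 and 1. Leaving out an array gave 2 to 3, and the replicate block gave 3. The members' median log2 difference was -0.016 to 0.0457 over all fits that left out an array.

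Of the other PP2A-related genes 6 passed, 10 without the variance trend, 11 at a threshold of 0.1, 7 with the replicate block and 0 and 0 within the gain sets (unadjusted p below 0.05: 6 and 7), and 2 to 5 when an array was left out (2 without Chd7 KD replicate 2 and 3 without Control replicate 3). Over all genes 1677 passed, against 2577 with the replicate block, 1093 in the authors' values (32.6% of them higher, against 46.6%), 2688 at a threshold of 0.1, 39 and 39 within the gain sets (24 and 10 higher), and 750 to 1453 without 1 array. Chd7 differed by -0.88 (adjusted p = 0.101) and -0.95 (0.0591) within the sets, and from -0.97 to -0.83 when an array was left out. The lone array of a set was assumed to vary like the others. Among the members, the PP2A-related and relative lists, the nearest profiles and the neighbours of Ppp2r2b, the replicate block changed the call of Ppp2r2c and Anp32a only, and among the cell markers that of 8 genes, all of which then passed. Over 40 genes and 879 comparisons with an alternative, 811 kept their side of the threshold, 51 lost a call and 17 gained one. Ppp2ca did not pass in either gain set and Ppp2r2b did not pass in the set with Chd7 KD replicate 2. In the authors' values, where dim genes are not compressed, Ppp2r3d differed by -0.46, Bod1l by -0.42 and Ankrd28 by -0.55. Dim genes such as Ppp2r5c and Ppp2r2c are limited by signal over background.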
